A study of Mus musculus with 8 samples.

Results

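T cell and natural killer (NK) cell genes were examined in hindlimb long bones of mice 30 days after doxorubicin. The genes were 38 named members of these lymphocyte programmes, found by symbol in a deposited table of 55421 genes; all 38 were present, each once. They were taken as 26 T cell members and 12 cytotoxic and NK members. Levels are given as CPM, counts scaled to a common library size with TMM factors. All 38 had reads in every library, at 2 to 960 counts per gene and library with a median of 70, and all 38 passed the filter on low counts.

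The DoxoR group was 4 wild-type C57BL/6 male mice, 15 weeks old at the start, given a single intraperitoneal dose of doxorubicin at 10 mg/kg, a DNA-damaging chemotherapy drug. The CTRL group was 4 mice of the same strain, genotype, sex and age given saline vehicle. Tibiae and femurs of each mouse were pooled into 1 library of polyadenylated RNA after their ends were cut off and the marrow was spun out. The series is concerned with complement, osteoclast precursors and bone loss, and the comparison here asked how lymphocyte genes of the spun bones differed between the groups.

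T cells recognise antigen through the T cell receptor, whose alpha and beta chains sit in the membrane with the CD3 chains and the zeta chain; the kinases LCK and ZAP70 pass the signal to the adaptor LAT. NK cells lack this receptor and are steered by germline-encoded activating and inhibitory receptors, many of them from the NK gene complex. Cytotoxic T cells and NK cells kill through granules that hold perforin and granzymes. Mature T and NK cells live in bone marrow beside the blood-forming cells.

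Libraries held between 23699525 and 35747083 counts, of which the 38 genes took between 0.00968% and 0.0226%. Bone and marrow markers were both present. The 10 osteoblast and osteocyte markers summed to between 2591 and 8819 CPM in DoxoR and between 3106 and 6105 CPM in CTRL, the 10 neutrophil markers to between 10243 and 21192 CPM in DoxoR and between 12745 and 22818 CPM in CTRL, the 9 erythroid markers to between 13807 and 29748 CPM in DoxoR and between 17626 and 34925 CPM in CTRL and the 4 muscle markers to between 7991 and 20605 CPM in DoxoR and between 2530 and 15648 CPM in CTRL. 

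The 3 CD3 genes lie side by side on chromosome 9 in GENCODE M21 on the mouse build GRCm38: Cd3g at chr9:44969572-44980431 on the minus strand, Cd3d at chr9:44981786-44987339 on the plus strand and Cd3e at chr9:44998740-45009627 on the minus strand. On chromosome 6 lie the beta chain constant genes Trbc1 (chr6:41538218-41539881) and Trbc2 (chr6:41546730-41548352), the CD8 genes, Cd4, and the NK complex genes Klrb1c, Klre1, Klrd1 and Klrk1. Cd28, Ctla4 and Icos are neighbours on chromosome 1, as are Cd5 and Cd6 on chromosome 19. Trbc1 and Trbc2 are near-identical copies, which bears on how reads are split between them. Over 644 aligned bases of 1 transcript of each gene the identity was 89.3%, the longest identical run was 259 bases, and the first 500 bases differed at 19 positions. The 100 bases with the most differences in that stretch, starting at base 383 of each transcript, are shown with the 16 differing bases in capitals.
Trbc1: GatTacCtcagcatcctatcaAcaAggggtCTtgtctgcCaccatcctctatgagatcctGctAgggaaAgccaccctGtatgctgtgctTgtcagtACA
Trbc2: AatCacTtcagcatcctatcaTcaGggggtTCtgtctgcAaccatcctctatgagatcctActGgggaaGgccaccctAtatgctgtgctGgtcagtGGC

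Promoters were set beside the values because the NK receptor genes and the granule genes had log2 fold changes on opposite sides of 0. RefSeq windows from 250 bases before to 50 after the start on GRCm38.p6 were at hand for 26 of the 38 genes, and the letters of 3 motifs were searched on both strands. TGTGGT, the core that RUNX factors bind, was in the windows of 14 of the 26 genes (53.8%), against 18.9% of all 27025 genes with a window. It was in 4 of 4 NK receptor genes and 4 of 4 granule genes with a window. GGAAGT, an ETS factor motif, was in 11 of 26 (42.3%), against 26.5% of all genes, and GGTGTGA, a T-box motif, in 2 of 26 (7.69%), against 4.60%. GGAAGT was in 1 of 4 NK receptor genes and 1 of 4 granule genes, and GGTGTGA in 0 of 4 and 1 of 4. The RUNX and ETS counts were thus the same in both lists. With only 4 genes with a window in each list, no reading of the fold changes was drawn from this. Genes with several windows were counted once if any window held the letters, and a match describes letters and not binding. The motifs do not overlap each other in the 4 windows printed, which show 2 NK receptor genes and 2 granule genes with the matches in capitals: Klrk1 (chr6:129623815-129624114, minus strand, 1 RUNX match), Klrb1c (chr6:128788592-128788891, minus strand, 1 RUNX and 1 ETS match), Nkg7 (chr7:43436888-43437187, plus strand, 1 RUNX and 1 T-box match) and Gzmb (chr14:56262285-56262584, minus strand, 2 RUNX matches).
Klrk1: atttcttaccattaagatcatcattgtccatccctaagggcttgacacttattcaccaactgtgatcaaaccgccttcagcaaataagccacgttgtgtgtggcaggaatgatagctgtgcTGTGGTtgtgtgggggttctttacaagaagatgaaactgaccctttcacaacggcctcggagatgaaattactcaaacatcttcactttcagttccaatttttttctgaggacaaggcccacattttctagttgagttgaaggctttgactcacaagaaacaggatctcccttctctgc
Klrb1c: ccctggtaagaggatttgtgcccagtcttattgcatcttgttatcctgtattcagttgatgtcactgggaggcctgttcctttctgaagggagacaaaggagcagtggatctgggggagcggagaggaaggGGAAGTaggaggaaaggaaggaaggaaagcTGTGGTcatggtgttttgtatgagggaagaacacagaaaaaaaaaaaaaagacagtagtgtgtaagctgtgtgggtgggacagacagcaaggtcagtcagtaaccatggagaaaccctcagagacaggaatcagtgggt
Nkg7: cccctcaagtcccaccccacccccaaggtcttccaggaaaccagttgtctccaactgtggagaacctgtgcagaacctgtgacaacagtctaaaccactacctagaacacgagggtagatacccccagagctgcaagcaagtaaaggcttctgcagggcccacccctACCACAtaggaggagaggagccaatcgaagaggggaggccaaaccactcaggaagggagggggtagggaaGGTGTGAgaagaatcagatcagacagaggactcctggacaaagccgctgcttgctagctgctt
Gzmb: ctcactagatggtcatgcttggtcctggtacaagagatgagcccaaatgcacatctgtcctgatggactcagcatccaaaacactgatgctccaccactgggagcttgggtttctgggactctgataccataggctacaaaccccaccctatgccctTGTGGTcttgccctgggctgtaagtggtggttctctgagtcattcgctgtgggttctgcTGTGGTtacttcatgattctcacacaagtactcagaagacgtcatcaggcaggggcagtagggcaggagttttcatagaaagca

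None of the 38 genes differed between the groups past the threshold. In edgeR's quasi-likelihood test 0 of 38 had an adjusted p under 0.05, as did 0 of all 17035 tested genes (0%), and the smallest adjusted p among the 38 was 0.856. DESeq2 also placed 0 of the 38 past the threshold, against 0.17% of all tested genes. At an unadjusted p under 0.05 edgeR had 1 of the 38, Cd4, against 5.36% of all tested genes, and DESeq2 had the same gene. The groups overlapped for all 38, whereas they did not overlap for 3.59% of all tested genes, 1.95% lower in DoxoR and 1.64% higher. The log2 fold change (DoxoR over CTRL) was below 0 for 28 of the 38 (73.7%), against 42.8% of all tested genes, and its median was −0.20, against 0.04. Members of 1 cell type vary together, so these 28 are not separate observations, and in bulk bone fewer lymphocytes and less of their RNA per cell cannot be told apart. The count was 23 without DoxoR 4 and 35 without DoxoR 2.

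**Figure D1:**
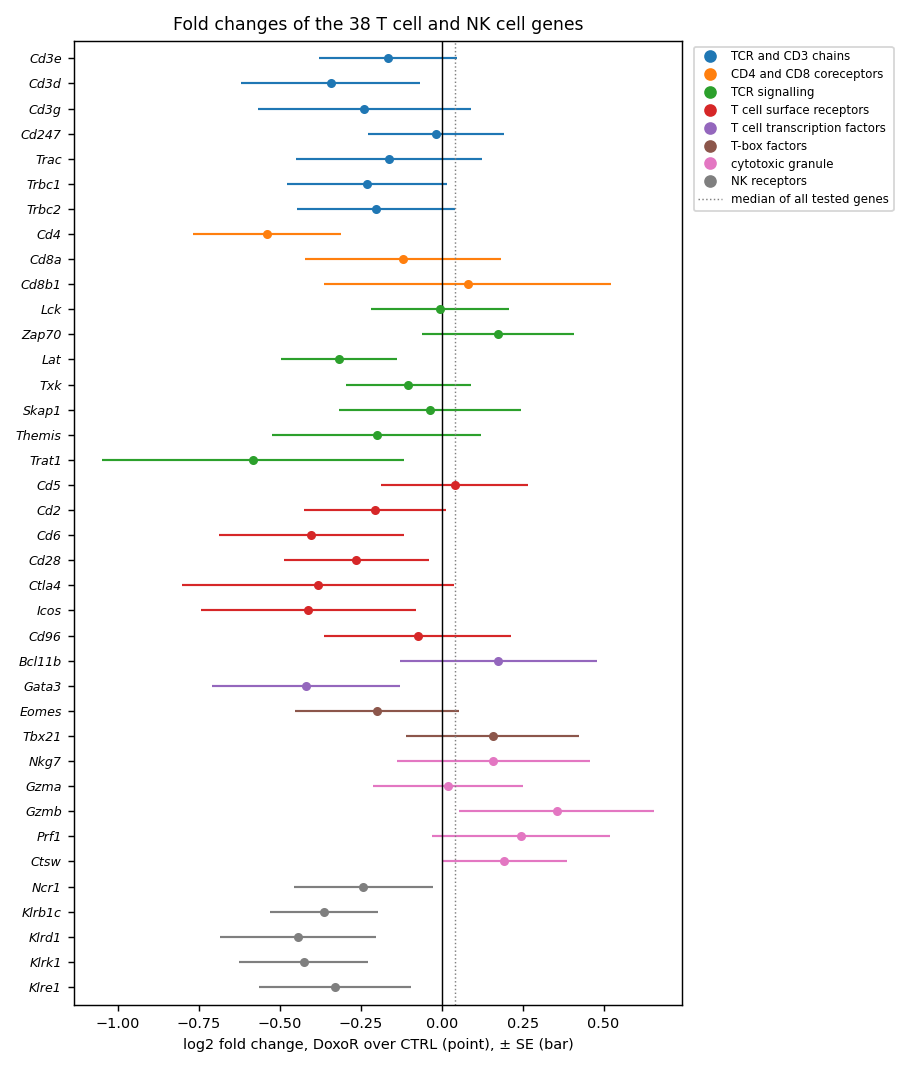
Log2 fold change of each of the 38 genes, DoxoR over CTRL, with its standard error as a bar, coloured by list; the dotted line is the median of all tested genes at 0.04. The 5 NK receptor genes lie between −0.44 and −0.24 and the 5 granule genes between 0.020 and 0.35.

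The libraries that stood highest and lowest were few. CTRL 3 was the highest library for 20 of the 38 genes (52.6%), against 19% of all tested genes. DoxoR 4 was the lowest for 15 (39.5%) and DoxoR 1 for 13 (34.2%), against 10.8% and 15.3% of all tested genes. DoxoR 2 and CTRL 3 were the lowest library for 0 of the 38 genes. Muscle RNA varied in the opposite order at both ends: the 4 muscle markers summed to 20605, 9764, 7991 and 19809 CPM in DoxoR 1 to 4, against 14250, 15648, 2530 and 14336 CPM in CTRL 1 to 4. DoxoR 1 and 4, lowest for most members, held the most muscle RNA, and CTRL 3 held the least. The part of muscle RNA in the members' values was not tested.

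The T cell receptor and CD3 chains all had log2 fold changes below 0, 7 of 7, with a median of −0.20 and a range from −0.34 to −0.018. None of the 7 had an unadjusted p under 0.05 in edgeR. Cd3e, the chain most often used to define T cells, was at 1.74, 2.13, 2.24 and 1.26 CPM in DoxoR 1 to 4, against 2.06, 1.87, 2.18 and 2.19 CPM in CTRL 1 to 4. DoxoR 1 and 4 lay below all CTRL libraries and DoxoR 2 and 3 lay within or above them, and the log2 fold change was −0.17 ± 0.21 (SE). Cd3d, another CD3 chain, was at 1.87, 2.55, 3.10 and 1.65 CPM in DoxoR 1 to 4, against 2.25, 3.27, 4.04 and 2.13 CPM in CTRL 1 to 4, a log2 fold change of −0.34 ± 0.28 (SE). Cd3g, the third CD3 chain, was at 2.39, 3.84, 4.45 and 2.61 CPM in DoxoR 1 to 4, against 2.36, 4.85, 5.92 and 2.60 CPM in CTRL 1 to 4, with a log2 fold change of −0.24 ± 0.33 (SE). Both of these were high in CTRL 2 and 3 and low in CTRL 1 and 4, and the groups overlapped. Without CTRL 3 the log2 fold change of Cd3d was −0.18 and that of Cd3g was 0.00071.

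The zeta chain gene Cd247, which carries most of the signalling motifs of the receptor, was at 1.74, 2.91, 2.83 and 2.39 CPM in DoxoR 1 to 4, against 2.02, 2.47, 2.92 and 2.60 CPM in CTRL 1 to 4, a log2 fold change of −0.018 ± 0.21 (SE). Its groups overlapped over most of their ranges. Over 3007 of its 5329 exon bases it overlaps Pou2f1 on the opposite strand, which had 7898 counts against 577 for Cd247, so its value is uncertain where strand was not used in counting. Trac, the alpha chain constant gene, was at 1.87, 3.39, 3.13 and 1.56 CPM in DoxoR 1 to 4, against 2.92, 2.05, 3.71 and 2.5 CPM in CTRL 1 to 4, a log2 fold change of −0.16 ± 0.29 (SE). The beta chain constant gene Trbc1 was at 2.61, 3.6, 4.35 and 2.30 CPM in DoxoR 1 to 4, against 3.30, 3.59, 5.15 and 3.07 CPM in CTRL 1 to 4, and Trbc2 at 4.09, 5.92, 6.82 and 5.38 CPM in DoxoR 1 to 4, against 4.31, 6.39, 9.24 and 5.60 CPM in CTRL 1 to 4. Their log2 fold changes were −0.23 ± 0.25 (SE) and −0.20 ± 0.24 (SE), with CTRL 3 the highest library for both. Since the sequences of these copies share long identical runs (shown above), the split between them is uncertain. Without DoxoR 4 the log2 fold change of Trac was 0.0018, and without CTRL 3 that of Trbc2 was −0.0018.

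Among the coreceptors, Cd4 had the smallest unadjusted p of the 38 genes. Cd4, which binds MHC class II on helper T cells, was at 9.70, 15.8, 16.1 and 12.5 CPM in DoxoR 1 to 4, against 18.3, 12.6, 24.3 and 23.3 CPM in CTRL 1 to 4. CTRL 1, 3 and 4 lay above all DoxoR libraries, and CTRL 2 lay among them. Its means were 13.5 ± 3.03 CPM in DoxoR and 19.7 ± 5.37 CPM in CTRL (SD, n = 4 each), and its log2 fold change was −0.54 ± 0.23 (SE), with an unadjusted p of 0.0398 and an adjusted p of 0.856 in edgeR's quasi-likelihood test. With each library left out in turn the log2 fold change ran from −0.71 to −0.43, and the unadjusted p in edgeR was 0.0514 or more without CTRL 1, 3 or 4 or DoxoR 1 or 4, and 0.0611 with library size as the only scaling. DESeq2 gave an adjusted p of 0.773. Cd8a, which with Cd8b1 forms the MHC class I coreceptor of cytotoxic T cells, was at 2.52, 4.96, 3.66 and 1.74 CPM in DoxoR 1 to 4, against 2.77, 3.17, 4.49 and 3.61 CPM in CTRL 1 to 4. Cd8b1 was at 1.35, 2.94, 3.46 and 0.738 CPM in DoxoR 1 to 4, against 1.24, 1.68, 2.79 and 2.36 CPM in CTRL 1 to 4. In both CD8 genes DoxoR 2 and 3 were high and DoxoR 1 and 4 low, and the DoxoR libraries reached both below and above the CTRL libraries. Their log2 fold changes were −0.12 ± 0.30 (SE) and 0.080 ± 0.44 (SE), and that of Cd8b1 ran from −0.27 without DoxoR 3 to 0.36 without DoxoR 4.

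Cd4 is also transcribed in mouse plasmacytoid dendritic cells and some tissue macrophages. Of the 8 macrophage markers, 7 had a log2 fold change below 0 and 2 had an unadjusted p under 0.05 in edgeR, both lower, against 3.23% of all tested genes lower at that p, with a list median of −0.30. DESeq2 called 1 of the 8, Cd163, against 0.17% of all tested genes. The groups did not overlap for 2, Cd163 and Adgre1, both lower, against 1.95% of all tested genes lower without overlap. Their summed level was 338, 487, 447 and 381 CPM in DoxoR 1 to 4, against 395, 396, 607 and 559 CPM in CTRL 1 to 4, and none of the 8 was at 0. The macrophage sum and Cd4 both had DoxoR 1 and then DoxoR 4 as their lowest libraries and CTRL 3 and then CTRL 4 as their highest. Cd163, a haemoglobin scavenger receptor of macrophages, was at 10.8, 17.3, 10.3 and 9.47 CPM in DoxoR 1 to 4, against 22.5, 19.2, 33.2 and 33.8 CPM in CTRL 1 to 4, and its groups did not overlap. Of the 6 plasmacytoid dendritic cell markers, 2 were below 0, Siglech and Ccr9, 4 were above 0 and none was at 0. Those above were Bst2, Klk1, Spib and Cox6a2, and the list median was 0.063. Sums over all 6 lay between 168 and 270.4 CPM in DoxoR and between 119.6 and 201 CPM in CTRL. The log2 ratio of the mean sums, DoxoR over CTRL, was 0.29. Siglech, a lectin that defines these cells, was at 16.01, 18.7, 22.0 and 18.4 CPM in DoxoR 1 to 4, against 21.3, 25.3, 25.5 and 21.4 CPM in CTRL 1 to 4, a log2 fold change of −0.32 ± 0.13 (SE) with an unadjusted p of 0.0318 and an adjusted p of 0.856 in edgeR's quasi-likelihood test. DoxoR 1, 2 and 4 lay below all CTRL libraries, and the log2 fold change of Ccr9, a chemokine receptor, was −0.33 ± 0.17 (SE). Cox6a2, which muscle also expresses, was the largest term of the sum in every library but CTRL 3, at 192, 103, 74.4 and 166 CPM in DoxoR 1 to 4, against 113, 122, 27.9 and 116 CPM in CTRL 1 to 4, and ordered the 8 libraries as the muscle markers did. The part of these cells in the Cd4 values was not tested.

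The 7 signalling genes had a median log2 fold change of −0.10, with 6 below 0. Lck, the kinase that starts signalling, averaged 7.18 ± 2.00 CPM in DoxoR and 7.23 ± 1.17 CPM in CTRL (SD, n = 4 each), and Zap70, the kinase that docks on the phosphorylated chains, was at 1.57, 2.28, 1.81 and 1.13 CPM in DoxoR 1 to 4, against 1.65, 1.35, 1.5 and 1.55 CPM in CTRL 1 to 4, a log2 fold change of 0.17 ± 0.24 (SE). Lat, the adaptor that ZAP70 phosphorylates, was at 10.6, 17.6, 14.3 and 14.8 CPM in DoxoR 1 to 4, against 14.2, 16.9, 22.0 and 18.3 CPM in CTRL 1 to 4. CTRL 3 and 4 lay above all DoxoR libraries and DoxoR 1 below all CTRL libraries, and the log2 fold change was −0.32 ± 0.18 (SE). Lat is also found in platelets and mast cells. All 6 megakaryocyte markers had log2 fold changes below 0, 4 of them with an unadjusted p under 0.05 in edgeR, against 3.23% of all tested genes lower at that p. DESeq2 called 1 of the 6, Gp6, the collagen receptor of platelets, with an adjusted p of 0.0433, against 0.17% of all tested genes. Their summed level was 769, 1210, 1061 and 1025 CPM in DoxoR 1 to 4, against 1166, 1534, 1865 and 1341 CPM in CTRL 1 to 4, with none at 0. Of the 6 basophil and mast cell markers 5 were below 0, with sums between 59.8 and 84.3 CPM in DoxoR and between 76.6 and 91.7 CPM in CTRL and none at 0. The part of these cells in the Lat values was not tested.

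Trat1, an adaptor that associates with the receptor, had the lowest level per length of the 38 genes, and by library it was at 0.435, 0.511, 0.362 and 0.0868 CPM in DoxoR 1 to 4, against 0.637, 0.373, 0.787 and 0.304 CPM in CTRL 1 to 4, which in DoxoR 4 rested on 2 counts. Its log2 fold change of −0.58 ± 0.47 (SE) was the most negative of the 38 and had the largest standard error. Themis, which acts in T cell selection in the thymus, was at 1.57, 1.56, 1.42 and 0.651 CPM in DoxoR 1 to 4, against 1.05, 1.73, 2.03 and 1.18 CPM in CTRL 1 to 4. DoxoR 4 was low and the other libraries overlapped, with a log2 fold change of −0.20 ± 0.32 (SE), which was 0.012 without DoxoR 4. Txk, a kinase of the TEC family, and Skap1, an adaptor in integrin activation, had log2 fold changes of −0.10 ± 0.19 (SE) and −0.036 ± 0.28 (SE).

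The 7 surface receptors of T cells had a median log2 fold change of −0.26, with 6 below 0. Cd28, the main co-stimulatory receptor, was at 2.13, 2.94, 3.85 and 3.69 CPM in DoxoR 1 to 4, against 3.93, 2.80, 4.47 and 3.92 CPM in CTRL 1 to 4. CTRL 1, 3 and 4 lay above all DoxoR libraries and CTRL 2 among them, and the log2 fold change was −0.26 ± 0.22 (SE). Its neighbours Icos, a co-stimulator, and Ctla4, an inhibitor of co-stimulation, had log2 fold changes of −0.41 ± 0.33 (SE) and −0.38 ± 0.42 (SE). Icos was at 1.17, 1.26, 0.626 and 0.912 CPM in DoxoR 1 to 4, against 1.27, 1.40, 1.88 and 0.709 CPM in CTRL 1 to 4, and without CTRL 3, its highest library, its log2 fold change was −0.21. Cd2, an adhesion receptor, was at 5.39, 7.51, 7.54 and 4.56 CPM in DoxoR 1 to 4, against 6.26, 5.55, 9.44 and 7.6 CPM in CTRL 1 to 4, a log2 fold change of −0.21 ± 0.22 (SE). Cd6 was at 0.478, 1.14, 1.09 and 0.738 CPM in DoxoR 1 to 4, against 1.05, 1.07, 1.12 and 1.38 CPM in CTRL 1 to 4, a log2 fold change of −0.40 ± 0.29 (SE), and its relative Cd5, an inhibitory receptor, had one of 0.040 ± 0.23 (SE). Mouse B cells also express Cd2, and some express Cd5; 3 of the 8 B cell markers lay below 0, with sums between 186 and 328 CPM in DoxoR and between 214 and 322 CPM in CTRL and none at 0. Cd96, an adhesion receptor that NK cells share, was at 1.98 ± 0.430 CPM in DoxoR and 2.08 ± 0.717 CPM in CTRL (SD, n = 4 each).

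Bcl11b, the transcription factor that commits cells to the T lineage, was at 1.35, 2.04, 1.28 and 0.868 CPM in DoxoR 1 to 4, against 1.27, 0.747, 1.40 and 1.49 CPM in CTRL 1 to 4, with a log2 fold change of 0.17 ± 0.30 (SE). Gata3, which acts in T cell development and in type 2 helper cells, was at 0.826, 0.781, 0.790 and 0.478 CPM in DoxoR 1 to 4, against 0.637, 0.793, 1.24 and 1.15 CPM in CTRL 1 to 4, with a log2 fold change of −0.42 ± 0.29 (SE). DoxoR 2 was the highest library for Bcl11b, and CTRL 3 and 4 were the highest for Gata3. Of the T-box factors of cytotoxic lymphocytes, Eomes was at 1.09, 1.68, 1.38 and 1.04 CPM in DoxoR 1 to 4, against 1.12, 1.35, 2.01 and 1.49 CPM in CTRL 1 to 4 and Tbx21, which encodes T-bet, at 0.783, 1.44, 1.35 and 0.955 CPM in DoxoR 1 to 4, against 1.16, 0.793, 0.889 and 1.25 CPM in CTRL 1 to 4. Their log2 fold changes were −0.20 ± 0.25 (SE) and 0.16 ± 0.27 (SE), each within 1 standard error of 0.

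**Figure D2:**
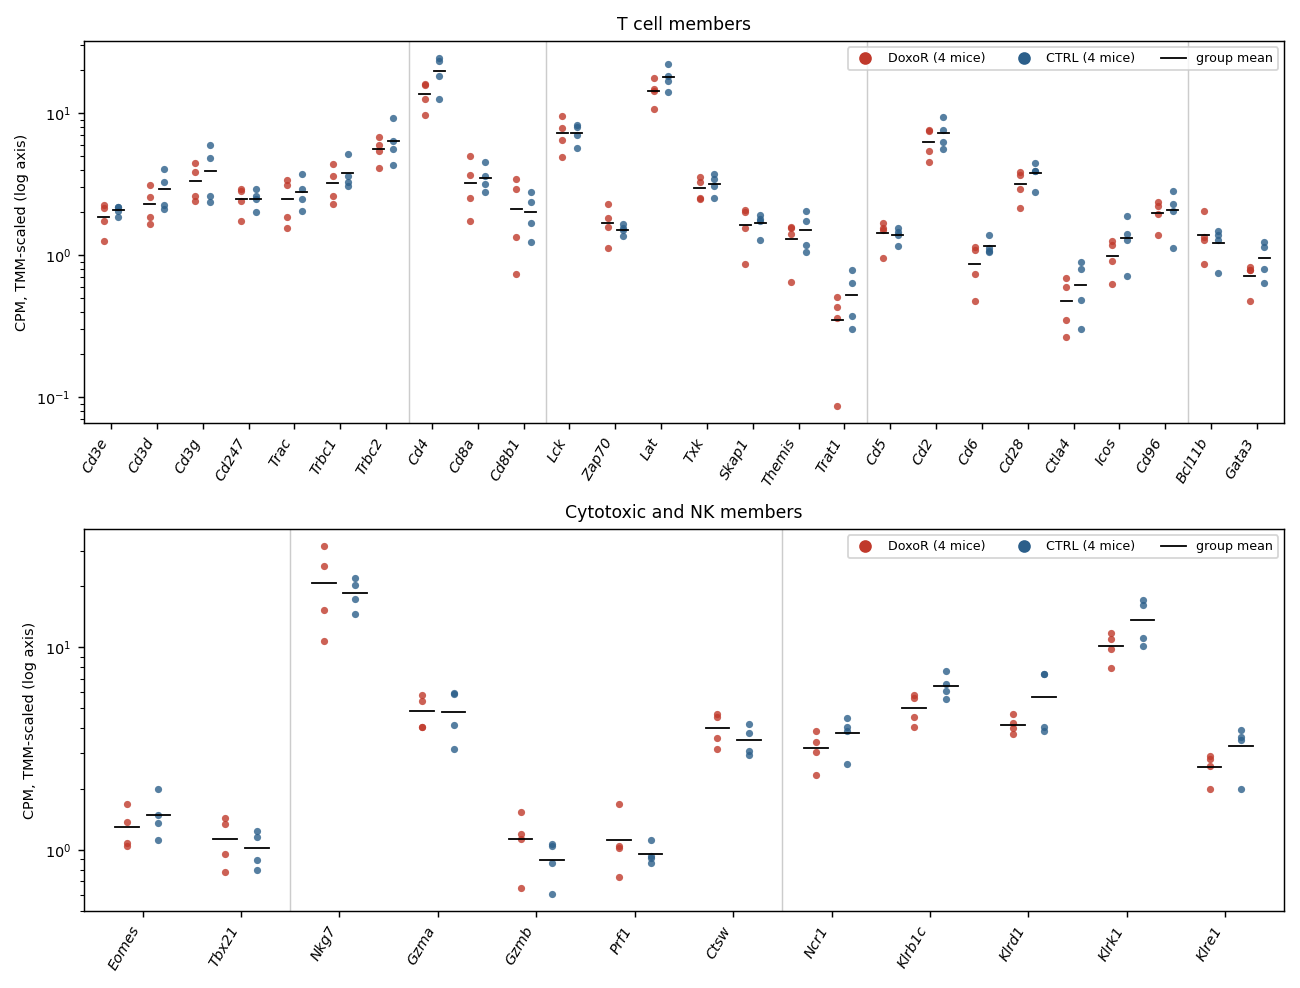
CPM of each of the 38 genes in each library on a log axis, DoxoR left of CTRL for each gene, with a bar at the group mean and grey lines between lists. Points of the groups overlap for every gene, and for Nkg7 DoxoR 3 and 4 stand above all CTRL libraries.

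The NK receptor genes lay lower in DoxoR bones in all 5 log2 fold changes, with a median of −0.36, but none passed the threshold or had an unadjusted p under 0.05 in edgeR. Klrb1c, which encodes the NK1.1 antigen that marks NK cells of C57BL/6 mice, was at 4.52, 5.65, 5.83 and 4.04 CPM in DoxoR 1 to 4, against 5.58, 7.61, 6.60 and 6.08 CPM in CTRL 1 to 4. CTRL 2, 3 and 4 lay above all DoxoR libraries, and DoxoR 1 and 4 below all CTRL libraries. Its log2 fold change was −0.36 ± 0.17 (SE), with an unadjusted p of 0.0557 in edgeR, and 413 of its 2961 exon bases overlap Gm44511 on the same strand, which had 7 counts. Klrk1, which encodes the activating receptor NKG2D, was at 7.92, 11.02, 11.7 and 9.81 CPM in DoxoR 1 to 4, against 11.1, 16.1, 17.1 and 10.2 CPM in CTRL 1 to 4. CTRL 2 and 3 stood apart above the other libraries, and the log2 fold change was −0.43 ± 0.20 (SE), with an unadjusted p of 0.0593 in edgeR. Klrd1, which encodes CD94, the partner of the NKG2 chains, was at 4.22, 4.72, 3.72 and 3.99 CPM in DoxoR 1 to 4, against 4.05, 7.37, 7.36 and 3.88 CPM in CTRL 1 to 4. The DoxoR libraries were close together, whereas CTRL 2 and 3 lay well above CTRL 1 and 4, and the log2 fold change was −0.44 ± 0.24 (SE).

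Klre1, another lectin-like receptor of NK cells, was at 2.91, 2.82, 2.60 and 2.00 CPM in DoxoR 1 to 4, against 3.6, 3.50, 3.91 and 1.99 CPM in CTRL 1 to 4, with a log2 fold change of −0.33 ± 0.23 (SE). CTRL 1, 2 and 3 lay above all DoxoR libraries, while CTRL 4 lay at the level of DoxoR 4. Ncr1, which encodes NKp46, was at 2.35, 3.88, 3.42 and 3.04 CPM in DoxoR 1 to 4, against 3.86, 4.06, 4.47 and 2.67 CPM in CTRL 1 to 4, with a log2 fold change of −0.24 ± 0.21 (SE). All 5 stayed below 0 with each library left out in turn, Klrk1 between −0.57 and −0.34 and Ncr1 between −0.40 and −0.14. The sum of the 5 was 21.9, 28.1, 27.3 and 22.9 CPM in DoxoR 1 to 4, against 28.2, 38.7, 39.4 and 24.8 CPM in CTRL 1 to 4.

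The granule genes had log2 fold changes above 0 in 5 of 5, with a median of 0.19, although Gzma lay at −0.031 with library size as the only scaling. None had an unadjusted p under 0.05 in edgeR. Gzmb, which encodes the protease granzyme B, was at 1.13, 1.2, 1.55 and 0.651 CPM in DoxoR 1 to 4, against 1.05, 1.07, 0.863 and 0.608 CPM in CTRL 1 to 4, a log2 fold change of 0.35 ± 0.30 (SE). Prf1, which encodes the pore-forming perforin, was at 1.04, 1.68, 1.02 and 0.738 CPM in DoxoR 1 to 4, against 1.12, 0.933, 0.863 and 0.911 CPM in CTRL 1 to 4, a log2 fold change of 0.24 ± 0.27 (SE). DoxoR 4 was low for both, and the other DoxoR libraries lay within or above the CTRL range. Gzma, which encodes granzyme A, was at 5.44, 5.83, 4.05 and 4.04 CPM in DoxoR 1 to 4, against 4.16, 5.93, 5.89 and 3.14 CPM in CTRL 1 to 4, a log2 fold change of 0.020 ± 0.23 (SE). Ctsw, a cathepsin of cytotoxic lymphocytes, was at 3.57, 4.72, 4.54 and 3.17 CPM in DoxoR 1 to 4, against 3.78, 3.08, 4.19 and 2.94 CPM in CTRL 1 to 4, a log2 fold change of 0.19 ± 0.19 (SE). DoxoR 2 and 3 were its highest libraries and CTRL 4 its lowest. Without DoxoR 2 only 3 of the 5 genes were above 0, with Gzma at −0.12 and Prf1 at −0.058. Gzma was also below 0 without DoxoR 1 (−0.055), without CTRL 1 (−0.040) and without CTRL 4 (−0.16).

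Nkg7, a membrane protein of cytotoxic granules, had the highest level per length of the 38 genes, at 22.7 ± 10.3 CPM per kb in DoxoR and 20.3 ± 3.57 CPM per kb in CTRL (SD, n = 4 each). By library it was at 10.8, 15.4, 31.6 and 25.2 CPM in DoxoR 1 to 4, against 14.7, 20.3, 22.0 and 17.3 CPM in CTRL 1 to 4. DoxoR 3 and 4 lay above all CTRL libraries and DoxoR 1 below them, and the log2 fold change of 0.16 ± 0.30 (SE) was −0.14 without DoxoR 3. Neutrophil markers were set beside it. Elane, the elastase gene of neutrophil precursors, chosen after its values were seen, was at 114, 153, 300.0 and 278 CPM in DoxoR 1 to 4, against 148, 191, 209 and 189.9 CPM in CTRL 1 to 4, and ordered the 8 libraries exactly as Nkg7 did. The 10 neutrophil markers together, of which 5 were below 0 and none was at 0, summed to 10243, 10400, 21192 and 17818 CPM in DoxoR 1 to 4, against 12745, 17489, 22818 and 12995 CPM in CTRL 1 to 4, with DoxoR 1 lowest for this sum too and CTRL 3 highest, ahead of DoxoR 3. Without Nkg7 the log2 ratio of the mean cytotoxic and NK sums, DoxoR over CTRL, was −0.24, against −0.11 with it. The part of neutrophil precursors in the Nkg7 values was not tested. The next levels per length after Nkg7 were those of Trbc2, at 8.02 ± 1.65 CPM per kb in DoxoR and 9.23 ± 3.02 CPM per kb in CTRL, and Lat, at 5.18 ± 1.04 CPM per kb in DoxoR and 6.45 ± 1.18 CPM per kb in CTRL, and the lowest was that of Trat1, at 0.0747 ± 0.0396 CPM per kb in DoxoR and 0.113 ± 0.0484 CPM per kb in CTRL (SD, n = 4 each).

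Set side by side, the 26 T cell members summed to 66.7, 103, 102 and 75.1 CPM in DoxoR 1 to 4, against 86.9, 92.2, 129 and 103 CPM in CTRL 1 to 4. The 12 cytotoxic and NK members summed to 45.8, 60.02, 72.8 and 58.7 CPM in DoxoR 1 to 4, against 55.2, 72.2, 76.1 and 52.4 CPM in CTRL 1 to 4. The T cell sum averaged 86.7 ± 18.6 CPM in DoxoR and 102.8 ± 18.8 CPM in CTRL, and the cytotoxic and NK sum 59.3 ± 11.1 CPM in DoxoR and 64.0 ± 11.9 CPM in CTRL (SD, n = 4 each). Each difference was smaller than the spread between mice, and the ranges overlapped. Of the T cell members 22 of 26 had a log2 fold change below 0, with a median of −0.20, and of the cytotoxic and NK members 6 of 12, with a median of −0.090. Cd4 and Lat held a large part of the T cell sum; without them, a choice made after the levels were seen, it was 46.4, 69.4, 71.8 and 47.9 CPM in DoxoR 1 to 4, against 54.4, 62.6, 82.8 and 61.3 CPM in CTRL 1 to 4. The log2 ratio of the group means, DoxoR over CTRL, was −0.25 with them and −0.15 without them. For an alternative list of 18 T cell members, drawn up to leave out genes shared with NK cells, the log2 ratio was −0.31. Whether NK cells express any of the 18 was not tested. That list left out Cd247, Lck, Zap70, Txk, Skap1, Cd2, Cd96 and Gata3 and kept Cd4 and Lat.

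The ratio of the NK receptor sum to the granule sum was 0.998, 0.975, 0.638 and 0.677 in DoxoR 1 to 4, against 1.14, 1.23, 1.17 and 0.995 in CTRL 1 to 4. Without Nkg7, which was left out after the values were seen, the ratio was 1.96, 2.09, 2.45 and 2.66 in DoxoR 1 to 4, against 2.79, 3.51, 3.34 and 3.26 in CTRL 1 to 4, and the groups did not overlap. It is given as a description with no test, since its parts were chosen with the results known.

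**Figure D3:**
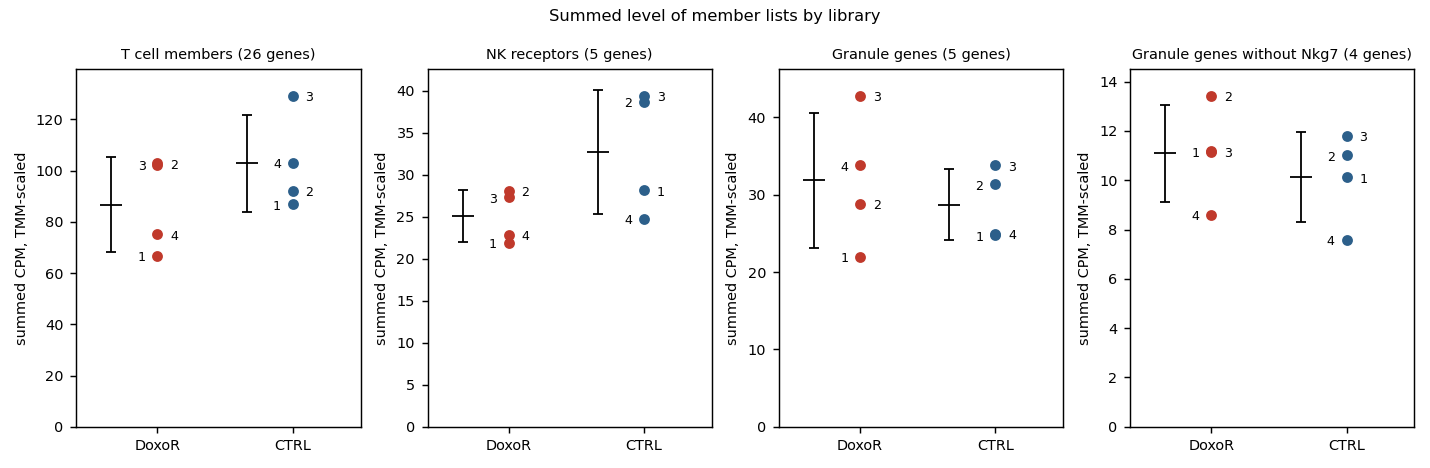
Summed CPM of 4 lists by library, DoxoR left of CTRL, with replicate numbers beside the points and the group mean ± SD beside each group (n = 4). The NK receptor sum runs from 21.9 to 28.1 CPM in DoxoR and from 24.8 to 39.4 CPM in CTRL, and the granule sum without Nkg7 from 8.60 to 13.4 CPM in DoxoR and from 7.6 to 11.8 CPM in CTRL.

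The T cell sum ordered the 8 libraries as the macrophage sum did, from DoxoR 1 and DoxoR 4 at the low end to CTRL 4 and CTRL 3 at the high end. Parts of that order were near ties. The macrophage sum was 395.4 CPM in CTRL 1 and 395.9 CPM in CTRL 2. The T cell sum was 102.2, 102.8 and 103.0 CPM in DoxoR 3, DoxoR 2 and CTRL 4. Without Cd4 and Lat the T cell sum had CTRL 4 below CTRL 2, DoxoR 2 and DoxoR 3, so that order rested in part on those genes. Of the 9 erythroid markers, whose sums are given above as a sign of residual marrow, 9 had a log2 fold change below 0. This compares with 42.8% of all tested genes, and 0 of the 9 had an unadjusted p under 0.05 in edgeR. Other marrow lists were mixed. Below 0 were 6 of 6 megakaryocyte, 7 of 8 macrophage and 5 of 6 basophil and mast cell markers. Fewer lay below 0 among neutrophil markers (5 of 10), B cell markers (3 of 8) and plasmacytoid dendritic cell markers (2 of 6). The erythroid sum was lowest in DoxoR 4 and then CTRL 1, unlike the T cell sum. The part of residual marrow in the T cell and macrophage sums was not tested.

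**Figure D4:**
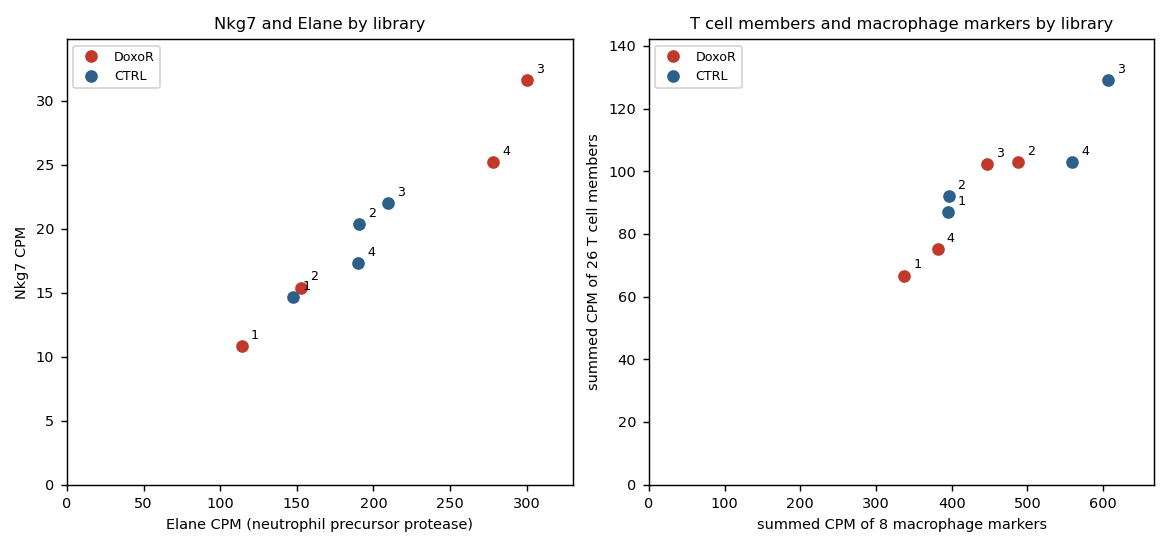
Each point is 1 library, numbered by replicate: Nkg7 CPM against Elane CPM (left) and the summed CPM of the 26 T cell members against that of the 8 macrophage markers (right). Libraries stand in the same order on both axes of each panel, with near ties in the right panel. Elane was chosen after its values were seen, and the sum of the 10 neutrophil markers did not have the order of Nkg7. The DoxoR libraries lie at both ends of the left panel.

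Other genes of these programmes were read from lists. Of 25 further T cell receptor signalling genes, all tested, 17 were below 0 with a median of −0.064, and 0 were past the threshold in edgeR or DESeq2. At an unadjusted p under 0.05 edgeR had 2, both lower, against 3.23% of all tested genes called lower at that p. Grap2, an adaptor that joins LAT to SLP-76 and is also made by megakaryocytes, was at 36.1, 47.3, 52.3 and 42.2 CPM in DoxoR 1 to 4, against 58.2, 64.1, 74.4 and 63.8 CPM in CTRL 1 to 4, a log2 fold change of −0.55 ± 0.13 (SE). Sla2, an adaptor that dampens receptor signalling, was at 3.22, 5.23, 5.76 and 5.60 CPM in DoxoR 1 to 4, against 6.74, 6.77, 9.37 and 6.62 CPM in CTRL 1 to 4, a log2 fold change of −0.57 ± 0.21 (SE). Neither gene's groups overlapped, against 1.95% of all tested genes lower in DoxoR with groups that did not overlap.

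Of 28 other T cell genes 23 were tested, 16 of them below 0 with a median of −0.094; 0 passed the threshold in edgeR or DESeq2, and 1 (lower) had an unadjusted p under 0.05 in edgeR, against 5.36% of all tested genes in either direction and 3.23% lower. The share in this list was near that of all genes. The gene was Gimap7, a GTPase of lymphocytes, at 3.16 ± 0.550 CPM in DoxoR and 4.64 ± 1.41 CPM in CTRL (SD, n = 4 each), a log2 fold change of −0.55 ± 0.24 (SE). Il7r, the receptor for the survival factor IL-7, which B cell precursors share, was at 20.0, 21.1, 12.9 and 12.2 CPM in DoxoR 1 to 4, against 24.5, 22.2, 25.2 and 17.4 CPM in CTRL 1 to 4. DoxoR 3 and 4 were its lowest libraries, and the log2 fold change was −0.43 ± 0.21 (SE). Gimap3, another GTPase of that family, was at 17.2, 21.9, 21.1 and 13.5 CPM in DoxoR 1 to 4, against 21.9, 22.5, 24.2 and 22.3 CPM in CTRL 1 to 4, a log2 fold change of −0.30 ± 0.15 (SE). Ccr7, a homing receptor of naive T cells, had a log2 fold change of −0.35 ± 0.19 (SE).

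Of 35 other NK and cytotoxic genes 28 were tested, 20 of them below 0 with a median of −0.22. None passed the threshold in edgeR or DESeq2, and 4 had an unadjusted p under 0.05 in edgeR, all lower, against 3.23% of all tested genes lower at that p. The groups did not overlap for 3, all lower, against 1.95% of all tested genes. Crtam, a receptor of activated cytotoxic lymphocytes, was at 0.913, 1.11, 1.09 and 1.3 CPM in DoxoR 1 to 4, against 1.91, 2.01, 1.93 and 1.76 CPM in CTRL 1 to 4, a log2 fold change of −0.78 ± 0.19 (SE). Klra8, which encodes the activating receptor Ly49H, was at 1.65, 2.22, 1.81 and 1.26 CPM in DoxoR 1 to 4, against 2.29, 2.89, 3.58 and 2.43 CPM in CTRL 1 to 4, a log2 fold change of −0.68 ± 0.23 (SE). For both genes every DoxoR library lay below every CTRL library. Stx11, a syntaxin needed for granule release that many blood cells express, was at 49.6, 55.7, 60.1 and 58.1 CPM in DoxoR 1 to 4, against 83.8, 89.1, 95.8 and 64.1 CPM in CTRL 1 to 4, and its groups did not overlap either. Cd226, an activating receptor also present on platelets and megakaryocytes, was at 59.2, 84.0, 49.7 and 66.6 CPM in DoxoR 1 to 4, against 86.7, 127, 164 and 82.4 CPM in CTRL 1 to 4, a log2 fold change of −0.82 ± 0.24 (SE), with DoxoR 2 above CTRL 4. The smallest adjusted p in this list was 0.703 in edgeR's quasi-likelihood test, shared by Stx11 and Crtam. All 6 megakaryocyte markers also lay below 0, and the part of these cells in the Grap2 and Cd226 values was not tested. The Ly49 and NKG2 families hold near-identical copies, so Klra8 may share reads with its relatives.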

How the data were processed

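Polyadenylated RNA of 8 mice, 4 DoxoR and 4 CTRL, was read from the deposited table of expected counts per gene, all whole numbers. Per the labels' protocols libraries were stranded with molecular identifiers; whether these or the strand were used in counting is not stated in the sources used here. The submitters' processing notes name STAR 2.5.3a, RSEM 1.3.0 and the human build GRCh38, although the identifiers are of mouse genes. GENCODE M21 (GRCm38) gave positions and exon lengths; it matched 55240 of 55421 identifiers without version and all 38 members with it.

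Genes with low counts were removed with filterByExpr (minimum count 10, minimum total 15), leaving 17035. The groups were compared with edgeR 4.0.16 in R 4.3.3 (TMM scaling, robust quasi-likelihood test, Benjamini-Hochberg adjustment over all tested genes, threshold 0.05, two-sided). DESeq2 1.42.0, other scalings, filters, a replicate block and each library left out were alternatives. CPM values use TMM-scaled library sizes. The procedure was tested on simulated data. Members and lists were chosen with earlier results of these data known. Named were all members, and in other lists up to 4 genes with the smallest p; the markers of other cell types were named after their values were seen. Duplicate libraries were looked for and none were found, with chi-square per degree of freedom between 27.3 and 278 over 28 pairs.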

Additional observations from a re-analysis of the deposited data

Results flagged for a closer look

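In the DoxoR group, DoxoR 4 stood apart from the other 3 libraries for Themis, at 0.651 CPM, against 1.42 to 1.57 CPM, and for Gata3, at 0.478 CPM, against 0.781 to 0.826 CPM. The gap took 0.836 and 0.87 of the group's range, above the 95% critical value of Dixon's test for 4 samples. These were 2 of 86 groups of 4 examined, where chance marks about 1 in 20.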

How the results depend on the processing

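In edgeR, 0 genes of all tested passed the threshold in the fit as reported and with each library left out (0 to 0), against 1 with no filter and 29 with DESeq2; 0 of the 38 members passed under any of the 14 alternatives, with a smallest adjusted p of 0.403 for Klrk1 without CTRL 4 in edgeR's quasi-likelihood test. Genes at an unadjusted p under 0.05 numbered 913, against 1466 with the replicate block and 639 to 1800 with each library left out. Members at that p numbered 1, against 0 with library size only, 2 with no filter, 3 with the replicate block and 0 to 3 with each library left out. Granule genes above 0 numbered 5, against 3 to 5 with each library left out and 3 with at least 1 CPM in 4 libraries, where 33 members were tested and Gzmb and Prf1 were not. NK receptor genes below 0 numbered 5 under every alternative, and receptor and CD3 chains 5 to 7 with each library left out. The log2 ratio of the T cell sum ran from −0.34 to −0.12 and that of the cytotoxic and NK sum from −0.22 to −0.0036.

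The median log2 fold change of all genes was 0.04 as reported, and −0.016 with library size only. Signs turned for 16 members and held for 22. Cd8b1 was at −0.033 with the replicate block, and Cd5 at −0.0050 and Gzma at −0.031 with library size only; the cause was not tested. With each library left out the log2 fold change ran from −0.43 to 0.00071 for Cd3g, −0.14 to 0.098 for Cd247, −0.38 to 0.0018 for Trac, −0.44 to 0.082 for Cd8a, −0.27 to 0.36 for Cd8b1, −0.20 to 0.12 for Lck, −0.035 to 0.32 for Zap70, −0.17 to 0.15 for Skap1, −0.34 to 0.012 for Themis, −0.077 to 0.17 for Cd5, −0.28 to 0.086 for Cd96, −0.11 to 0.34 for Bcl11b, −0.0093 to 0.28 for Tbx21, −0.14 to 0.35 for Nkg7, −0.16 to 0.12 for Gzma and −0.058 to 0.39 for Prf1. Same-numbered libraries had correlated deviations of 0.342, −0.266, 0.43 and 0.0902 for numbers 1 to 4, so the numbers were not taken to pair mice. Low counts, down to 2 for Trat1, limit the precision of single genes.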

Other observations

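The ratio of the CD8 genes (Cd8a plus Cd8b1) to Cd4 in CPM was 0.399, 0.501, 0.441 and 0.199 in DoxoR 1 to 4, against 0.219, 0.384, 0.299 and 0.256 in CTRL 1 to 4. The ratio of Trbc2 to Trbc1 was 1.57, 1.64, 1.57 and 2.34 in DoxoR 1 to 4, against 1.31, 1.78, 1.79 and 1.82 in CTRL 1 to 4. Both are descriptions with no test, and the groups overlapped.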
